A study of Schizosaccharomyces pombe with 12 samples.

Results

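Deletion of *thc1* in fission yeast was compared with the h- wild type that it was made from, using RNA sequencing counts for 3 cultures of each, which are 6 of the 12 libraries in the series. Every gene of the deposited counts was considered, and 6235 of 7004 genes had enough counts to be tested. *thc1*Δ cells were h- and carried *his3-D1*, *ura4-D18*, *leu1-32* and *ade6-M216*, with the *thc1* reading frame replaced by *his3*+, and the wild type (WT control for thc1 deletion) had the same genotype with *thc1* intact. All *thc1*Δ cultures thus differ from their controls in histidine prototrophy as well as in *thc1*, and both groups carry the other auxotrophic alleles. *bmc1*Δ and its own wild type, both h+ and sequenced on the same flow cell, are used here only as a second set of levels. The *bmc1* wild type carries *leu1-32*, *ura4-D18*, *his3-D1* and *ade6-M210*/*ade6-M216*, and *bmc1*Δ in addition *bmc1::natMX6*. Each genotype has 1 strain number, and whether its 3 replicates came from separate isolates is not stated, so that *p* values measure the spread between cultures. All cultures were in logarithmic growth at 32 °C in rich medium.

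Thc1 binds telomerase together with Pof8 and Bmc1 and helps to keep the telomerase RNA, TER1, stable. Telomerase extends chromosome ends by copying a template within this RNA, and its protein subunit Trt1 carries out the copying. Many of the other genes described below are ones whose RNA levels fission yeast adjusts to its surroundings: transporters for metals, phosphate and sugars, enzymes that make amino acids, and chaperones.

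Library totals were 35165252 to 37231236 counts in *thc1*Δ and 36742020 to 37790987 in its wild type, so that counting error is small for all but the weakest genes. Levels are given as CPM, counts scaled to library size after normalization for library composition, and changes as log2 fold changes of *thc1*Δ over its wild type with their standard error (SE). A gene was called when its *p* value, adjusted over all genes tested, was below 0.05. Biological variation was unequal between the groups: the coefficient of variation left after counting error was 8.55% among *thc1*Δ cultures and 2.13% among their wild type cultures, against 8.37% in *bmc1*Δ and 7.27% in the h+ wild type. One *thc1*Δ culture, replicate 1, stood apart from replicates 2 and 3, and without it the value in *thc1*Δ was 4.3%. Replicate 1 is described at the end, and values without it are given beside the results that change most with it. Among the 6 M-cell markers tested, the M-factor gene *mfm2* was at 13.9 to 17.2 CPM in *thc1*Δ and 20.6 to 22.8 CPM in its wild type. In the h+ strains it was at 1.54 to 2.06 CPM in 4 libraries but at 13.6 CPM in *bmc1*Δ replicate 1 and 8.63 CPM in h+ wild type replicate 2 (both above the other h+ libraries). Results that use the h+ wild type are also given without its replicate 2 where the call or count changes with it, a choice resting on *mfm2* and made after seeing the data. Another M-factor gene, *mfm3*, did not separate the wild types, at 1.12 to 1.5 CPM in the h- wild type and 0.951 to 1.47 CPM in the 6 h+ libraries. Summed over the 6 M-cell markers, levels were 132 to 136 CPM in the h- wild type and 106 to 119 CPM in the h+ wild type, with 99 to 134 CPM in *bmc1*Δ. The counts of the *thc1* gene itself, at 19.7 to 21 CPM in *thc1*Δ and 48.2 to 52 CPM in its wild type, fell but did not reach 0. A count per gene does not show where in the gene its reads lie. From coverage tracks of its RNA sequencing, the study reported no reads over the *thc1* reading frame in *thc1*Δ.

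In all, 624 genes were higher in *thc1*Δ (10.0% of the genes tested) and 689 were lower (11.1%), 1313 together (21.1%). Most of these shifts were small. Of the 1313, 1238 changed less than 2-fold, the median size of a called change was 0.27 on the log2 scale, and the median over all genes was 0.00, with quartiles of -0.10 and 0.10. At least 2-fold changes were called for 47 higher genes (0.754%) and 28 lower genes (0.449%). Leaving out *thc1*Δ replicate 1, 2 or 3 in turn gave 2562, 915 and 858 calls of either direction, and leaving out wild type replicate 1, 2 or 3 gave 579, 578 and 641. Each of these fits rests on 5 libraries. Without *thc1*Δ replicate 1, 20.7% of genes were called higher and 20.2% lower.

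The other 6 libraries were used to see which group of each pair lay beyond all the rest among these strains. This measure depends on the spread within a group, and the coefficient of variation was 2.13% in the h- wild type and 8.55% in *thc1*Δ. The 9 libraries set beside *thc1*Δ also include *bmc1*Δ, so that a change shared by both deletions does not count as set apart. For 21 of the 75 genes changed at least 2-fold (28.0%), the 3 *thc1*Δ libraries lay beyond all 9 other libraries, and for 52 of the 75 (69.3%) the 3 h- wild type libraries did. Over all 6235 genes tested this held for 768 genes in *thc1*Δ and for 1123 in the h- wild type. Among higher genes of any fold, *thc1*Δ stood apart for 160 (25.6%) and the h- wild type for 380 (60.9%), and among lower genes *thc1*Δ for 293 (42.5%) and the h- wild type for 288 (41.8%). A called gene already separates *thc1*Δ from its own wild type, so these shares are higher than over all genes by construction. When the same *thc1*Δ libraries were set against the h+ wild type in place of their own, 329 genes were higher (5.28%) and 515 lower (8.26%), or 129 and 285 without h+ wild type replicate 2. This comparison shares its *thc1*Δ libraries with the first, and in it mating type and *ade6* allele cannot be told apart from *thc1*.

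**Figure D1:**
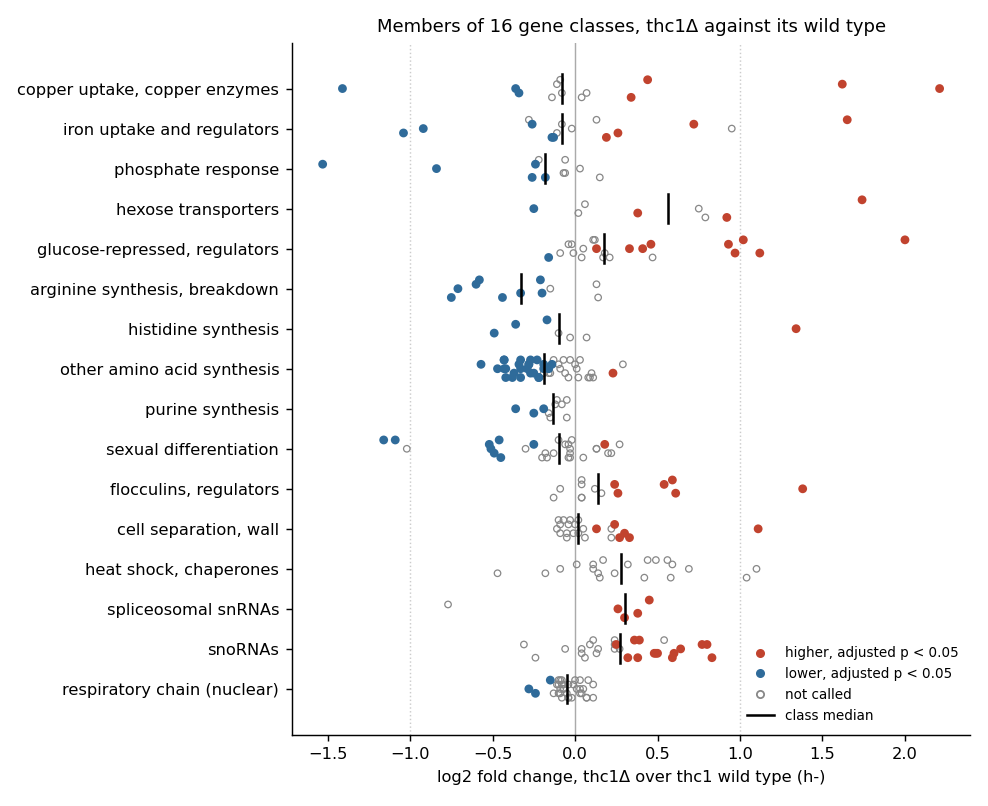
Log2 fold changes of *thc1*Δ over its h- wild type for the tested members of 16 gene classes, 1 point per gene, with red points for higher calls, blue for lower calls, open points for genes not called and a black bar at the class median. Dotted lines mark 2-fold. Arginine synthesis has 8 lower and 0 higher calls, and the snoRNAs, here the 29 tested genes with the systematic prefix SPSNORNA, 14 higher and 0 lower, while copper and iron genes moved both ways.

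Genes of copper supply moved strongly and in both directions. Ctr4 and Ctr5 together form the high-affinity copper transporter of the cell surface. *ctr4* was at 563, 684 and 628 CPM in *thc1*Δ and at 134, 139 and 131 CPM in its wild type. The groups did not overlap, and the difference was 2.21 ± 0.074 (SE), 4.64-fold, with an adjusted *p* of 3.54e-06. *ctr5* was at 488, 515 and 453 CPM in *thc1*Δ and 163, 161 and 151 CPM in its wild type (1.62 ± 0.058, adjusted *p* = 3.54e-06). *sod1*, which encodes the copper and zinc superoxide dismutase, went the other way. It had 225, 248 and 238 CPM in *thc1*Δ and 616, 659 and 614 CPM in its wild type, a 2.66-fold lower level (-1.41 ± 0.052, adjusted *p* = 3.54e-06). *ctr6*, a copper transporter of the vacuole, rose by less, to 67.2, 72.1 and 75.6 CPM in *thc1*Δ against 53.4, 53.9 and 50.6 CPM in its wild type (0.44 ± 0.051, adjusted *p* = 0.000999). Of the 13 copper genes tested, 4 were higher and 3 lower (53.8%, against 21.1% over all genes). The lower count was 6 without *thc1*Δ replicate 1, 3 without replicate 3 and 2 without any other library.

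For these copper genes the h- wild type was the group that stood alone. The h+ wild type had 606, 525 and 541 CPM of *ctr4* and 273, 232 and 215 CPM of *sod1*, within or next to the range of *thc1*Δ. Against it, the fold change of *thc1*Δ was 0.16 for *ctr4* (adjusted *p* = 0.245) and -0.03 for *sod1* (adjusted *p* = 0.865). *ctr5* was an exception, because all 3 *thc1*Δ libraries exceeded the 339 to 373 CPM of the h+ wild type as well (0.43, adjusted *p* = 0.00724).

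Iron genes were mixed. The reductive uptake pair of the cell surface, the oxidase Fio1 and the permease Fip1, was lower. *fio1* was at 46.5, 25.3 and 20.2 CPM in *thc1*Δ and 64.4, 59.7 and 64.2 CPM in its wild type (-1.04 ± 0.25, adjusted *p* = 0.025), and *fip1* at 34, 19.8 and 19.2 CPM in *thc1*Δ and 45.2, 44.7 and 48 CPM in its wild type (-0.92 ± 0.19, adjusted *p* = 0.0132). Replicate 1 of *thc1*Δ lay nearer to the wild type than replicates 2 and 3 for both genes. Without it the changes were -1.47 and -1.24, and without wild type replicate 3 the adjusted *p* values were 0.088 and 0.0594. The siderophore transporter gene *str3* rose to 10.9, 6.21 and 4.97 CPM in *thc1*Δ against 2.24, 3.14 and 1.66 CPM in its wild type (1.65 ± 0.33, adjusted *p* = 0.0117, or 0.0561 without wild type replicate 3). *frp1*, the ferric reductase, was at 9.7, 8.08 and 8.06 CPM in *thc1*Δ and 6, 5.22 and 4.48 CPM in its wild type (0.72 ± 0.13, adjusted *p* = 0.00671). Together 4 of 15 iron genes were higher and 5 lower. Leaving out a library gave 5, 4 and 4 higher and 6, 2 and 3 lower for *thc1*Δ replicates 1 to 3, and 2, 2 and 1 higher and 2, 2 and 1 lower for wild type replicates 1 to 3. *frp1* was lower in *thc1*Δ than in the h+ wild type (-0.82, adjusted *p* = 0.0025).

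Several genes induced when phosphate is scarce were lower in *thc1*Δ. The secreted acid phosphatase gene *pho1* had 269, 275 and 260 CPM in *thc1*Δ and 795, 752 and 773 CPM in its wild type. The difference of -1.53 ± 0.042 (adjusted *p* = 1.93e-06) is 2.89-fold, with little spread in either group. *pho84*, which encodes a phosphate transporter, was at 999, 773 and 773 CPM in *thc1*Δ and at 1559, 1517 and 1488 CPM in its wild type (-0.84 ± 0.093, adjusted *p* = 0.000784). All 5 called genes of the 11 in this class (45.5%, against 21.1% over all genes) were lower, including the polyphosphate polymerase gene *vtc4* (-0.26, adjusted *p* = 0.0122) and the glycerophosphodiester transporter gene *tgp1* (-0.24, adjusted *p* = 0.033). Leaving out *thc1*Δ replicates 1, 2 and 3 gave 7, 3 and 3 lower genes, and leaving out any one wild type replicate gave 2. The adjusted *p* values without wild type replicate 2 were 0.0606 for *vtc4* and 0.134 for *tgp1*. In the h+ wild type *pho1* was at 388, 242 and 280 CPM and *pho84* at 753, 524 and 562 CPM. By edgeR 0 of the 11 genes were called between *thc1*Δ and the h+ wild type, with 2 at an unadjusted *p* below 0.05. The changes were -0.18 for *pho1* (adjusted *p* = 0.435) and 0.46 for *pho84* (adjusted *p* = 0.0799).

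**Figure D2:**
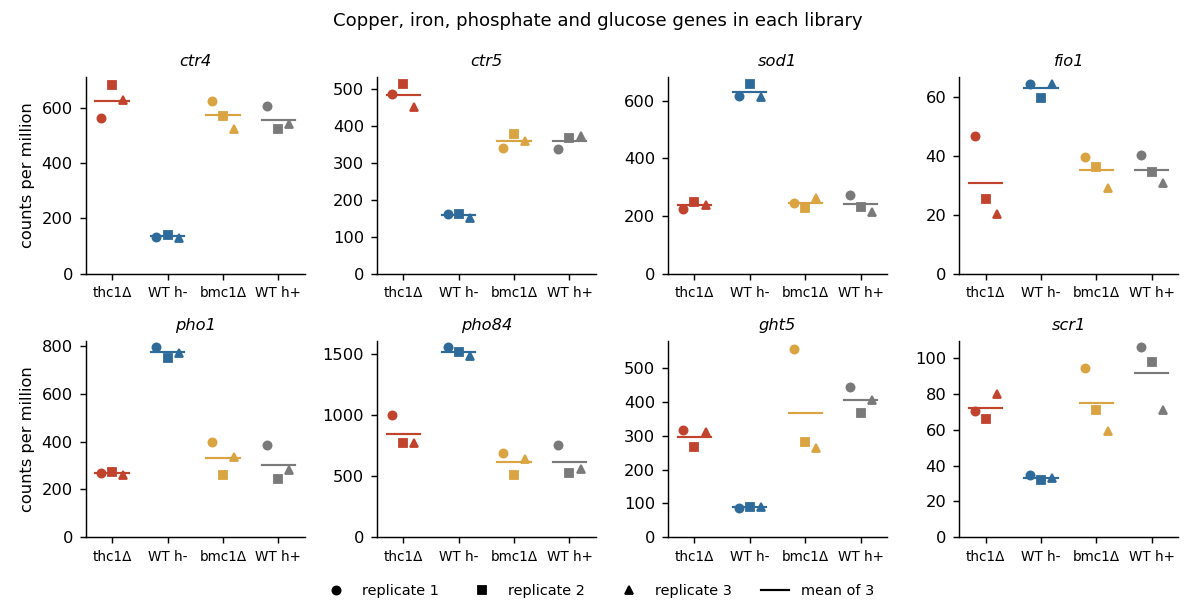
CPM of 8 genes in the 12 libraries, with *thc1*Δ first, then its h- wild type, *bmc1*Δ and the h+ wild type, where circles, squares and triangles are replicates 1, 2 and 3 and bars are means of 3. In all 8 panels the h- wild type lies apart from the other groups: *ctr4* is at 563 to 684 CPM in *thc1*Δ and at 131 to 139 CPM in the h- wild type.

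Sugar transporters and genes held down by glucose had more higher than lower calls in *thc1*Δ over its own wild type, and only lower calls over the h+ wild type. *ght5*, the high-affinity hexose transporter gene, was at 317, 266 and 310 CPM in *thc1*Δ and 85.8, 90.3 and 90.9 CPM in its wild type (1.74 ± 0.065, adjusted *p* = 3.54e-06). The h+ wild type had more, 444, 367 and 407 CPM, and against it the change was -0.45 (adjusted *p* = 0.0182). Another transporter gene, *ght1*, had 13.6, 14.8 and 18.5 CPM in *thc1*Δ, 7.57, 8.14 and 8.97 CPM in its wild type and 51.1, 35.4 and 43.1 CPM in the h+ wild type. Its change was 0.92 ± 0.13 over its own wild type (adjusted *p* = 0.00217) and -1.47 over the h+ wild type (adjusted *p* = 0.00127). Of 8 transporter genes 3 were higher and 1 lower (50.0%, against 21.1% over all genes), with a median of 0.56. Against the h+ wild type 0 were higher and 4 lower, with a median of -0.45. The remaining higher gene, *ght2*, had an adjusted *p* of 0.0281, or 0.0979 without wild type replicate 3.

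Scr1 is the repressor that holds down genes for other carbon sources when glucose is plentiful. Its gene *scr1* was at 70.7, 66.1 and 80.1 CPM in *thc1*Δ and 34.7, 32 and 33.2 CPM in its wild type (1.12 ± 0.07, adjusted *p* = 6.51e-05). In the h+ wild type it was at 106, 98 and 71.1 CPM. Of 22 glucose-repressed genes and their regulators 9 were higher in *thc1*Δ and 1 lower (45.5%, against 21.1% over all genes), with a median of 0.18. Against the h+ wild type 0 were higher and 9 lower, with a median of -0.25. Without h+ wild type replicate 2 that comparison gave 0 higher and 7 lower, with a median of -0.27. *gcd1*, annotated as a glucose-6-phosphate dehydrogenase gene, had 9.99, 11.3 and 15 CPM in *thc1*Δ and 5.62, 6.31 and 5.96 CPM in its wild type (1.02 ± 0.15, adjusted *p* = 0.0031). The glycerol dehydrogenase gene *gld1* (0.97, adjusted *p* = 0.0341) and the transcriptional repressor gene *rsv1* (2.00, adjusted *p* = 0.0287) were also higher, but their adjusted *p* values became 0.124 without wild type replicate 1 and 0.11 without wild type replicate 3. *rsv1* was weakly counted, at 0.693, 1.51 and 2.39 CPM in *thc1*Δ and 0.32, 0.601 and 0.237 CPM in its wild type. The count of higher genes was 15, 6 and 6 without *thc1*Δ replicate 1, 2 or 3, and 5 without any one wild type replicate.

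In amino acid synthesis *thc1*Δ was set apart from all other libraries for most called genes, and the h- wild type for fewer. Over all lower calls, of any class, *thc1*Δ stood apart for 42.5% and the h- wild type for 41.8%. Arginine is made from ornithine through carbamoyl phosphate, and 8 of the 11 genes tested for this route and for arginine breakdown were lower (72.7%, against 21.1% called over all genes), 0 were higher and the median was -0.33. *arg5* and *arg4*, which encode the small and large subunits of the arginine-specific carbamoyl phosphate synthase, were both lower. *arg5* had 293, 289 and 254 CPM in *thc1*Δ and 470, 472 and 468 CPM in its wild type (-0.75 ± 0.057, adjusted *p* = 0.000138), and *arg4* had 1109, 1110 and 1032 CPM in *thc1*Δ and 1632, 1605 and 1626 CPM in its wild type (-0.58 ± 0.042, adjusted *p* = 0.000122). *arg3*, the ornithine carbamoyltransferase gene, had 101, 99 and 93 CPM in *thc1*Δ and 149, 147 and 146 CPM in its wild type (-0.60 ± 0.04, adjusted *p* = 8.73e-05). The next step, argininosuccinate synthase, is encoded by *arg12*, which was at 364, 403 and 355 CPM in *thc1*Δ and 606, 618 and 609 CPM in its wild type (-0.71 ± 0.054, adjusted *p* = 0.000138). For 7 of the 8 lower genes all 3 *thc1*Δ libraries were below all 9 others, and for 1 of the 8 the h- wild type lay beyond all 9 others. Over the h+ wild type 6 of the 11 were lower, with changes of -0.67 for *arg5* and -0.73 for *arg4*. The count with a library left out was 7 to 9.

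The other amino acid routes shifted the same way by less. This list of 46 genes was put together after the values had been seen, so its counts are a description. In it 26 genes were lower, 1 was higher (*lys7*, 0.23, adjusted *p* = 0.0387, or 0.144 without wild type replicate 1), and the median was -0.19. Calls made up 58.7% of the list, against 21.1% over all genes. *gdh1*, whose product fixes ammonium into glutamate, was at 445, 425 and 411 CPM in *thc1*Δ and 635, 640 and 632 CPM in its wild type (-0.57 ± 0.039, adjusted *p* = 0.0001). It was at 518, 538 and 542 CPM in the h+ wild type, also above every *thc1*Δ library. *hom3*, the aspartate kinase gene, had 405, 395 and 385 CPM in *thc1*Δ and 550, 542 and 549 CPM in its wild type (-0.47 ± 0.035, adjusted *p* = 0.000135). *lys12* of lysine synthesis (-0.43 ± 0.037) and the aspartate aminotransferase gene *caa1* (-0.43 ± 0.033) followed. For 25 of the called genes, all but *ilv3* and *leu1*, *thc1*Δ lay beyond all 9 other libraries. The h- wild type lay beyond all 9 other libraries for 10 of the called genes, so that for some genes both groups stood apart. Without *thc1*Δ replicate 1 the counts were 35 lower and 4 higher, and with any other library left out 20 to 25 lower. Against the h+ wild type 17 were lower and 0 higher, with a median of -0.18, and 8 were lower without h+ wild type replicate 2.

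Histidine synthesis has its own interest because *his3*+ was used as the marker. *his3* was at 49.5, 41.5 and 43.6 CPM in *thc1*Δ and at 18.3, 17.1 and 17.6 CPM in its wild type (1.34 ± 0.069, adjusted *p* = 2.04e-05). Apart from it, 3 of the other 6 genes were lower and 0 higher. *his2* had 279, 278 and 260 CPM in *thc1*Δ and 383, 382 and 380 CPM in its wild type (-0.49 ± 0.04, adjusted *p* = 0.00022), *his4* changed by -0.36 (adjusted *p* = 0.00086), and *his5* by -0.17 (adjusted *p* = 0.00874, or 0.0568 without wild type replicate 2). In purine synthesis 3 of 10 genes were lower and 0 higher (30.0%, against 21.1% over all genes). All 10 were lower without *thc1*Δ replicate 1, where 20.2% of all genes were lower. With another library left out 1 to 3 were lower. The most changed was *ade7*, at 194, 194 and 184 CPM in *thc1*Δ and 244, 247 and 244 CPM in its wild type (-0.36 ± 0.037, adjusted *p* = 0.000583).

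**Figure D3:**
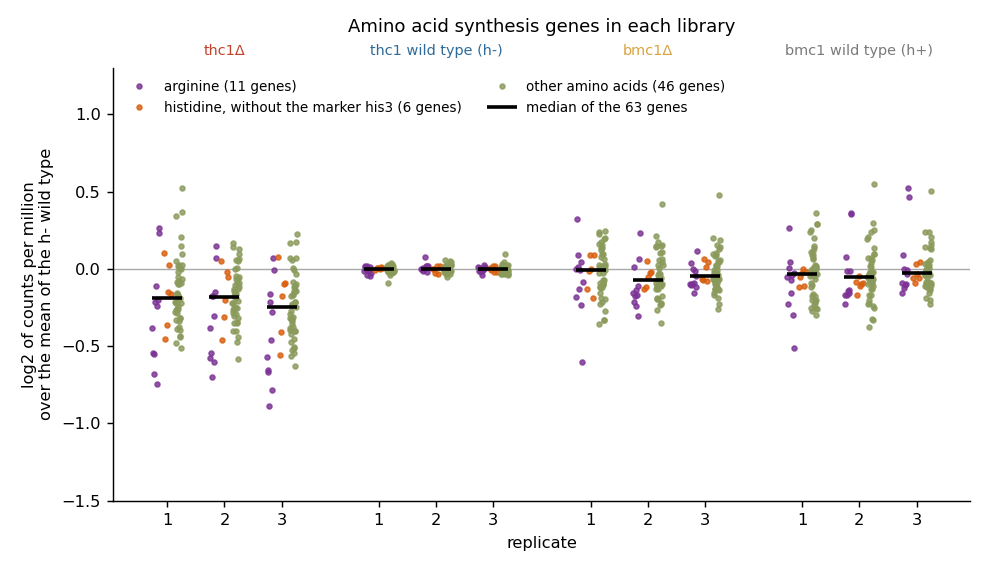
Levels of 63 amino acid synthesis genes (*his3* left out) in the 12 libraries, as the log2 of CPM over the mean of the h- wild type, with 1 point per gene, colours for the arginine, histidine and other genes and black bars at the median of each library. The medians are -0.19, -0.18 and -0.25 in *thc1*Δ, 0 in its wild type, and -0.07 to 0 in the 6 h+ libraries.

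Among changes under 2-fold, those with the smallest adjusted *p* included further genes that handle nitrogen compounds or foreign molecules. *aca1*, an acetyltransferase that detoxifies a proline analogue, had 27.6, 30 and 28.5 CPM in *thc1*Δ and 55.6, 57.9 and 54.3 CPM in its wild type (-0.96 ± 0.048, adjusted *p* = 1.9e-05). Its level in the h+ wild type was 61.3, 56.2 and 55 CPM, so that *thc1*Δ was lower than both. *gst2*, a glutathione S-transferase gene, was at 159, 149 and 152 CPM in *thc1*Δ and 283, 277 and 269 CPM in its wild type (-0.85 ± 0.039, adjusted *p* = 1.01e-05). *sno1*, annotated as a glutamine amidotransferase subunit, had 97.5, 96.8 and 96.9 CPM in *thc1*Δ and 140, 144 and 142 CPM in its wild type (-0.55 ± 0.03, adjusted *p* = 3.36e-05). *per1*, an amino acid permease gene, was higher, at 76.3, 75.1 and 73.7 CPM in *thc1*Δ and 54.7, 55.9 and 53.6 CPM in its wild type (0.45 ± 0.034, adjusted *p* = 0.000133). The pyruvate decarboxylase gene *pdc201* was lower (-0.97 ± 0.07, adjusted *p* = 0.000122), as were the oxidoreductase gene SPAC5H10.10 (-0.60 ± 0.036) and the transporter gene SPBC16A3.17c (-0.50 ± 0.032). For all 7 of these genes the *thc1*Δ libraries lay beyond all 9 others.

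Among the higher genes with the smallest adjusted *p* under 2-fold, the h- wild type was in several cases the group set apart. SPBP8B7.32, an uncharacterized gene, was at 264, 265 and 260 CPM in *thc1*Δ and 136, 145 and 143 CPM in its wild type (0.90 ± 0.038, adjusted *p* = 6.79e-06), and here *thc1*Δ lay above all 9 other libraries. The transcription factor gene *esc1* was at 178, 181 and 198 CPM in *thc1*Δ and 103, 97.7 and 104 CPM in its wild type (0.87 ± 0.05, adjusted *p* = 4.82e-05), but at 260, 257 and 187 CPM in the h+ wild type. The same order of the groups held for the means of the kinase gene *lkh1* (0.71 ± 0.044 over its own wild type and -0.44 over the h+ wild type), the NEDD8 protease gene *nep2* (0.93 ± 0.066 and -0.37) and the silencing factor gene *clr5* (0.59 ± 0.043 and -0.36). Without h+ wild type replicate 2 the adjusted *p* of the difference from the h+ wild type was 0.0303 for *lkh1*, 0.103 for *nep2* and 0.0796 for *clr5*.

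The gene next to *thc1*, *tho3*, a subunit of the THO complex that couples transcription to mRNA export, was higher in *thc1*Δ. It was at 67.4, 68.7 and 68.8 CPM in *thc1*Δ and at 36.1, 39.7 and 37.8 CPM in its wild type (0.85 ± 0.043, adjusted *p* = 2e-05), and at 38.4, 38 and 37.3 CPM in the h+ wild type. Among the 18 tested neighbours of *thc1*, 4 were higher and 1 lower (27.8%, against 21.1% over all genes), or 7 and 2 without *thc1*Δ replicate 1. The mitotic kinase gene *wee1*, also nearby, was at 70.3, 72.3 and 79.3 CPM in *thc1*Δ and 53, 50.2 and 52.4 CPM in its wild type (0.51 ± 0.051, adjusted *p* = 0.000496), but at 95.3, 88.9 and 71.3 CPM in the h+ wild type. The use of strand in counting is not stated, so reads from overlapping genes on opposite strands may be mixed.

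Of the 21 genes changed at least 2-fold in which *thc1*Δ stood beyond all 9 other libraries, 9 were higher and 12 lower. They were picked out after their values had been seen. TER1, the telomerase RNA, was at 57.9, 50.2 and 55.5 CPM in *thc1*Δ and 155, 159 and 151 CPM in its wild type (-1.51 ± 0.051, adjusted *p* = 3.54e-06). It was not the only RNA of this size of change. *puf5*, a gene of the Pumilio family of RNA-binding proteins, rose to 86.5, 89.8 and 108 CPM in *thc1*Δ against 39.6, 37.4 and 39.5 CPM in its wild type (1.29 ± 0.081, adjusted *p* = 6.51e-05). SPCC70.08c, annotated as a methyltransferase, was lower, with 11.3, 12 and 11 CPM in *thc1*Δ and 31.5, 26.7 and 32.4 CPM in its wild type (-1.40 ± 0.086, adjusted *p* = 6.24e-05). SPBC1271.07c, annotated as an N-acetyltransferase, had 26.7, 39 and 33.9 CPM in *thc1*Δ and 76.5, 72.8 and 75.7 CPM in its wild type (-1.18 ± 0.12), *aes1* changed by -1.05 ± 0.097 and SPAC186.06 by -1.23 ± 0.17. Every h+ library had at least 34.3 CPM of SPCC70.08c. *ten1*, whose product caps telomeres together with Stn1, was at only 1.42, 0.922 and 1.26 CPM in *thc1*Δ and 3.39, 2.68 and 3.03 CPM in its wild type (-1.34 ± 0.17, adjusted *p* = 0.00171). Against the h+ wild type, at 1.94, 2.11 and 1.65 CPM, its change was -0.67 (adjusted *p* = 0.0551).

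Long non-coding RNAs were called in both directions. Of 1145 tested, 94 were higher and 111 lower (17.9%, against 21.1% over all genes), with a median of -0.02, and 22 and 12 passed 2-fold. Leaving out one of *thc1*Δ replicates 1 to 3 gave 175, 59 and 49 higher and 181, 74 and 71 lower, and leaving out one of wild type replicates 1 to 3 gave 41, 39 and 44 higher and 61, 54 and 57 lower. Of those whose place is annotated, 68.2% overlap a coding gene on the opposite strand, against 67.7% of the higher and 66.7% of the lower ones. Among those changed at least 2-fold it was 72.7% of the 22 higher and 41.7% of the 12 lower, a difference that was not tested. The largest fall was that of SPNCRNA.863, to 57.7, 50.1 and 45.8 CPM in *thc1*Δ against 210, 206 and 225 CPM in its wild type (-2.06 ± 0.08, adjusted *p* = 3.93e-06). This RNA varied widely in the h+ wild type, at 761, 438 and 210 CPM. SPNCRNA.1344 was at 3.12, 4.72 and 3.22 CPM in *thc1*Δ and 13.3, 14.3 and 13.9 CPM in its wild type (-1.90 ± 0.15, adjusted *p* = 0.00016), and at 18 to 24.6 CPM in the h+ wild type. The strongest rise of an RNA in which *thc1*Δ stood apart was that of SPNCRNA.287, at 1.91, 1.9 and 2.2 CPM in *thc1*Δ and 0.32, 0.41 and 0.29 CPM in its wild type (2.55 ± 0.19, adjusted *p* = 0.000126). SPNCRNA.100 rose as much over its own wild type (2.54 ± 0.28) but did not differ by the test from the h+ wild type (-0.17, adjusted *p* = 0.647).

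Several small structured RNAs were slightly higher in *thc1*Δ. The snoRNAs guide modification and cleavage of ribosomal RNA, and RefSeq annotates 43 of the genes tested as such, of which 18 were higher and 1 lower, with a median of 0.24. The lower one, SPNCRNA.1650, was at 1.96, 2.12 and 2.18 CPM in *thc1*Δ and 2.64, 3.25 and 2.69 CPM in its wild type (-0.45 ± 0.13, adjusted *p* = 0.0413, or 0.144 without wild type replicate 2). Of the 29 snoRNAs that carry the systematic prefix SPSNORNA, 14 were higher and 0 lower (48.3%, against 21.1% over all genes), with a median of 0.27. *snoR69* was at 16.3, 12.1 and 12.4 CPM in *thc1*Δ and 7.25, 8.17 and 7.46 CPM in its wild type (0.83 ± 0.12, adjusted *p* = 0.00291). Among the 29, the higher count was 14, 13 and 9 without *thc1*Δ replicate 1, 2 or 3, and 8, 8 and 6 without wild type replicate 1, 2 or 3, with 1 lower only without *thc1*Δ replicate 1. Against the h+ wild type 1 of the 29 was higher and 0 lower, with a median of 0.20, or 3 higher without h+ wild type replicate 2. Of the 5 spliceosomal RNAs, 4 were higher (80.0%, against 21.1% over all genes), and the remaining one had a change of -0.77 without a call. Against the h+ wild type 0 of the 4 tested were called, with a median of 0.18. Without h+ wild type replicate 2, 1 of 5 was higher and 0 lower. U2 (*snu2*), the most counted, was at 438, 377 and 459 CPM in *thc1*Δ and 309, 337 and 331 CPM in its wild type (0.38 ± 0.07, adjusted *p* = 0.00801), and at 377, 353 and 334 CPM in the h+ wild type. U1 (*snu1*) had an adjusted *p* of 0.0494, or 0.156 without wild type replicate 3. The share of all counts on all 53 genes with the prefix SPSNORNA, tested or not, was 0.0943 ± 0.00691% in *thc1*Δ and 0.0764 ± 0.00174% in its wild type (SD, n = 3 each, exact permutation *p* = 0.1, two-sided, the smallest that 3 against 3 can give).

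Nearly all counts on ribosomal RNA genes came from SPRRNA.01 and SPRRNA.02, which the study's annotation names as the large and small ribosomal RNAs of mitochondria. SPRRNA.01 was at 422, 361 and 565 CPM in *thc1*Δ and 169, 172 and 159 CPM in its wild type (1.43 ± 0.14, adjusted *p* = 0.000484). SPRRNA.02 was at 242, 219 and 329 CPM in *thc1*Δ and 104, 111 and 92.3 CPM in its wild type (1.36 ± 0.14, adjusted *p* = 0.000619). For both the h- wild type lay below all 9 other libraries, and neither differed by the test between *thc1*Δ and the h+ wild type (-0.34, adjusted *p* = 0.377, and -0.26, adjusted *p* = 0.451). Together with the few other ribosomal RNA counts they made up 0.0706 ± 0.0169% of all counts in *thc1*Δ and 0.0269 ± 0.00148% in its wild type (SD, n = 3 each, exact permutation *p* = 0.1). The libraries were depleted of ribosomal RNA, and the part of depletion in these levels and in those of the small RNAs was not tested. Of the other 31 genes of mitochondrial DNA that were tested, 5 were higher and 0 lower (16.1%, against 21.1% over all genes), and 4 of these were transfer RNAs. SPMITTRNALYS.01 was at 2.57, 2.1 and 3.25 CPM in *thc1*Δ and 0.56, 0.3 and 0.659 CPM in its wild type (2.37 ± 0.27, adjusted *p* = 0.00096), with 3.58, 4.33 and 2.6 CPM in the h+ wild type. Leaving out *thc1*Δ replicate 2 gave 9 higher genes, *thc1*Δ replicate 1 gave 7 higher and 2 lower, and other single libraries 3 or 4 higher. The share of all counts on all 36 such genes, tested or not, was 4.60 ± 0.391% in *thc1*Δ and 4.36 ± 0.331% in its wild type (SD, n = 3 each, exact permutation *p* = 0.5).

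Tf2 retrotransposon copies are nearly identical, so that their counts are uncertain, and 2 of the 4 tested were lower (50.0%, against 21.1% called over all genes). Tf2-11 was at 5.78, 6.15 and 6.85 CPM in *thc1*Δ and 12.4, 11.3 and 12.6 CPM in its wild type (-0.95 ± 0.091, adjusted *p* = 0.000434), and at 26.7, 21.3 and 18.9 CPM in the h+ wild type. The other, Tf2-10, had an adjusted *p* of 0.0381, or 0.132 without wild type replicate 2, and all 4 were lower without *thc1*Δ replicate 1.

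Genes of sexual differentiation, which nitrogen starvation turns on, were lower in 8 of 29 cases and higher in 1 (31.0% called, against 21.1% over all genes). *mei2*, the RNA-binding protein gene that drives meiosis, was at 15, 13.4 and 19.4 CPM in *thc1*Δ and 34.8, 31 and 36 CPM in its wild type (-1.09 ± 0.12, adjusted *p* = 0.000913). The h+ wild type had less than either, 10.6, 9.35 and 7.3 CPM, and against it *mei2* was higher in *thc1*Δ (0.81, adjusted *p* = 0.0219, or 0.0624 without h+ wild type replicate 2). The pheromone genes *mfm2* (-0.52 ± 0.086, adjusted *p* = 0.00522) and *mfm3* (-1.16 ± 0.21, adjusted *p* = 0.0071) and the mating kinase gene *spk1* (-0.51 ± 0.077, adjusted *p* = 0.00352) were lower. Without *thc1*Δ replicate 1 the counts were 12 lower and 6 higher, and without any other library 6 to 8 lower.

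All called flocculin and cell wall genes were higher in *thc1*Δ when all libraries were used. Of 14 flocculins, the adhesins that make cells clump, and their regulators, 6 were higher and 0 lower (42.9%, against 21.1% over all genes). *pfl8* was at 112, 61.9 and 66.4 CPM in *thc1*Δ and 29.7, 30.3 and 31.9 CPM in its wild type (1.38 ± 0.21, adjusted *p* = 0.00315), and 22, 24.3 and 22.2 CPM in the h+ wild type. *mbx2*, the transcription factor gene that turns flocculins on, was at 63.6, 55.4 and 60.5 CPM in *thc1*Δ and 38.3, 38.4 and 40.6 CPM in its wild type (0.61 ± 0.054, adjusted *p* = 0.000281). Both were above all 9 other libraries. The flocculin genes *gsf2* (0.59) and *pfl9* (0.54) were called with all libraries, and their adjusted *p* values were 0.152 and 0.0753 without wild type replicate 2. With one wild type library left out 4 of the 14 were higher. Over the h+ wild type 3 of the 14 were higher and 2 lower, with a median of 0.08. In cell separation and wall synthesis 6 of 23 genes were higher and 0 lower (26.1%, against 21.1% over all genes), or 9 and 1 without *thc1*Δ replicate 1. Over the h+ wild type 1 of the 23 was higher and 0 lower, with a median of -0.04, or 0 higher without h+ wild type replicate 2. The α-glucan synthase gene *ags1*, among those higher over its own wild type, was at 1423, 1409 and 1389 CPM in *thc1*Δ and 1137, 1090 and 1121 CPM in its wild type (0.33 ± 0.036, adjusted *p* = 0.000686). *ags1* did not differ by the test from the h+ wild type, at 1360 to 1502 CPM (-0.04, adjusted *p* = 0.689).

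For classes tied to telomerase or to RNA metabolism, the share of genes called is set beside the 21.1% over all genes. Of the 7 telomerase genes tested, TER1 and *thc1* were called and the others were not. The call of *thc1* follows from its deletion, so a share that counts it (28.6%) cannot be compared with the 21.1%. *trt1* was at 101, 96.2 and 94.4 CPM in *thc1*Δ and 94.1, 95.2 and 93.3 CPM in its wild type (0.04), and the difference was 0.01 for *pof8* and -0.06 for *bmc1*. In the LSm ring, which binds TER1 and U6, 1 of 8 genes was higher (12.5%; *lsm2*, 0.18, adjusted *p* = 0.0279, or 0.112 without wild type replicate 2), and in the Sm ring 0 of 7 were called, with 0 at an unadjusted *p* below 0.05 by edgeR, DESeq2 or limma-voom. Telomere capping genes had 1 call in 9 (11.1%), *ten1* above, or 2 higher and 3 lower without *thc1*Δ replicate 1. Cap binding had 2 of 13 higher (15.4%), transcription termination 3 of 22 higher (13.6%), nuclear RNA decay 2 higher and 1 lower of 25 (12%), and DNA damage repair 2 higher and 2 lower of 22 (18.2%). All calls in these last 4 classes were 0.29 or less on the log2 scale. Without *thc1*Δ replicate 1 they had 2, 4, 2 and 3 higher and 1, 2, 6 and 4 lower genes in that order, and with any one wild type library left out at most 1 call in each class. The core histones had 0 calls in 10, with 0 at an unadjusted *p* below 0.05 by edgeR and 1 by DESeq2 or limma-voom. Cytosolic ribosomal protein genes had 9 higher and 1 lower of 138 with a median of 0.04 (7.25%), or 2 to 3 higher with a wild type library left out, against 32 higher and 0 lower over the h+ wild type, and ribosome biogenesis genes 15 higher and 0 lower of 106 with a median of 0.06 (14.2%), against 45 higher and 0 lower. Over the h+ wild type without its replicate 2 these counts were 4 and 16 higher. For ribosome biogenesis the count over its own wild type was 21 higher and 11 lower, with a median of 0.01, without *thc1*Δ replicate 1, and 5 higher without any one wild type library. Of the 142 genes nearest the chromosome ends 18 were higher and 22 lower (28.2%), with a median of -0.02, or 33 and 35 without *thc1*Δ replicate 1 and 7 to 10 higher and 16 to 18 lower with a wild type library left out. Nuclear genes of the respiratory chain had 3 lower and 0 higher of 35 (8.57%), or 5 lower and 2 higher without *thc1*Δ replicate 1.

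Replicate 1 of *thc1*Δ departed from the other *thc1*Δ cultures by 2-fold or more in a limited set of genes, and by less in many others. Its median departure in size over the 6235 genes was 0.1033 on the log2 scale, against 0.0711 for replicate 2 and 0.0748 for replicate 3. Replicate 1 lay below the mean of the other cultures in 2 of 138 cytosolic ribosomal protein genes and in 10 of 10 core histone genes. Compared with the mean of replicates 2 and 3, 60 genes were at least 2-fold lower and 14 at least 2-fold higher in replicate 1. The same count, 74 in all, was 11 for replicate 2 and 19 for replicate 3, and 4 to 9 for the h- wild type libraries. Replicate 1 was not alone in the series, since *bmc1*Δ replicate 1 had 89 such genes and h+ wild type replicate 1 had 60. Across genes, the departures of *thc1*Δ replicate 1 and of these libraries correlated at -0.23 and -0.09, against 0.49 between those h+ libraries, over the same 6235 genes (Pearson, a description, since genes are not independent). Among genes with a mean of at least 10 CPM, 28 were lower and 4 higher in replicate 1.

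**Figure D4:**
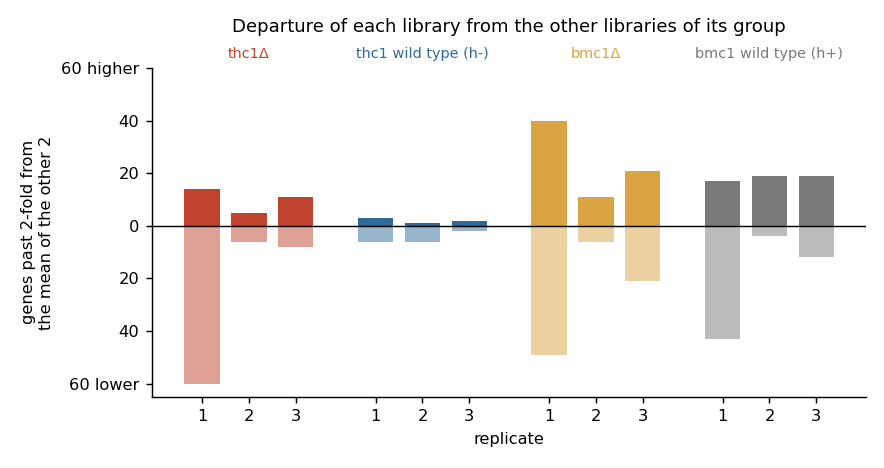
Number of the 6235 tested genes that lie at least 2-fold from the mean of the other 2 libraries of their group, with 1 bar per library, higher genes drawn up from 0 in full colour and lower genes drawn down in pale colour. *thc1*Δ replicate 1 has 14 higher and 60 lower, and the 3 h- wild type libraries at most 3 higher and 6 lower.

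Chaperone genes and genes of trehalose synthesis were among the largest departures. *psi1*, a gene for a chaperone of the DnaJ type, was at 75.7, 258 and 256 CPM in *thc1*Δ and 92.8, 93.8 and 89.4 CPM in its wild type, a departure of replicate 1 by -1.76 on the log2 scale. *hsp104*, the gene for the disaggregase, was at 102, 345 and 328 CPM in *thc1*Δ and 132, 119 and 127 CPM in its wild type, and *sti1*, the gene for a partner of Hsp90, at 325, 1024 and 926 CPM in *thc1*Δ and 506, 499 and 510 CPM in its wild type. Hsp90 itself had 3039, 7030 and 6015 CPM in *thc1*Δ and 3792, 3823 and 3855 CPM in its wild type. In each case replicates 2 and 3 were above the wild type and replicate 1 was below it. Over the 20 chaperone genes, replicate 1 was below replicates 2 and 3 in 18 and below all 3 wild type libraries in 17, while replicates 2 and 3 were above all 3 wild type libraries in 16. Their summed level was 21873, 34236 and 30935 CPM in *thc1*Δ and 24880 to 24981 CPM in its wild type, and the median departure of replicate 1 was -0.99, against 0.01 over all genes. The trehalose synthesis genes had the same order of libraries, *tps1* with 130, 349 and 356 CPM in *thc1*Δ and 178, 185 and 187 CPM in its wild type, and *tps3* with 120, 402 and 397 CPM in *thc1*Δ and 139, 141 and 144 CPM in its wild type.

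**Figure D5:**
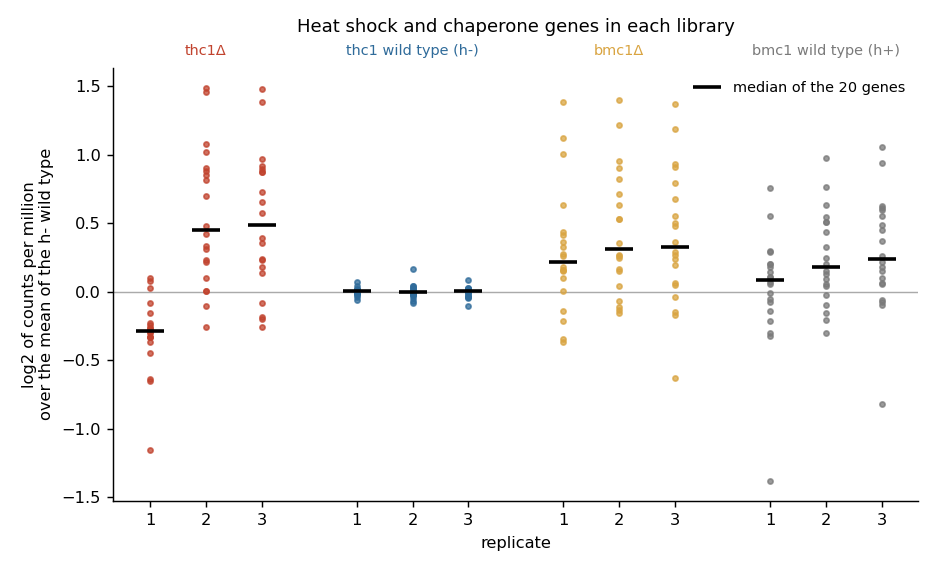
Levels of the 20 chaperone genes in the 12 libraries, as the log2 of CPM over the mean of the h- wild type, with 1 point per gene and black bars at the median. The medians are -0.29, 0.45 and 0.48 in *thc1*Δ replicates 1, 2 and 3, 0 in its wild type, 0.22 to 0.33 in *bmc1*Δ and 0.09 to 0.24 in the h+ wild type.

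With all 3 *thc1*Δ cultures 0 of the 20 chaperone genes were called by edgeR (adjusted *p* = 0.083 for *psi1* and 0.0924 for *hsp104*), DESeq2 or limma-voom, and 4, 4 and 3 of them had an unadjusted *p* below 0.05. Without replicate 1, 16 were higher and 2 lower, with a median of 0.53. The changes were then 1.48 for *psi1* and 1.42 for *hsp104*, and leaving out replicate 2 or 3 in its place gave 0 higher. In the h+ strains, *hsp104* was at 328, 331 and 325 CPM in *bmc1*Δ and 213, 248 and 261 CPM in their wild type, so that the level in *thc1*Δ replicate 1 lay outside all 9 other libraries, and outside the other *thc1*Δ cultures.

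The genes higher in replicate 1 were few. *str1*, a siderophore transporter gene, was at 213, 97.8 and 92.9 CPM in *thc1*Δ and 66.8, 73.1 and 68.1 CPM in its wild type (0.95 ± 0.29, adjusted *p* = 0.0505), and at 0.46 (adjusted *p* = 7.89e-06) without replicate 1. *vht1*, the gene for the vitamin H (biotin) transporter, was at 1735, 893 and 728 CPM in *thc1*Δ and 958, 897 and 968 CPM in its wild type (0.25 ± 0.27, adjusted *p* = 0.558). It changed sign, to -0.22 (adjusted *p* = 0.0299), without replicate 1.

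Leaving out replicate 1 kept nearly all calls made with all 3 cultures and added many others. Without replicate 1, 1297 genes were higher and 1265 lower, 2562 in all. Of these 2562, 1305 were among the 1313 genes called with all 3 cultures, and the rest were not called with all 3. Of the 75 genes changed at least 2-fold, 73 were so without replicate 1, and 33 higher and 17 lower genes were added. The lncRNA SPNCRNA.1656 was among the higher genes either way, at 8, 22.2 and 23.6 CPM in *thc1*Δ and 3.49, 3.39 and 3.72 CPM in its wild type (2.35 ± 0.38, adjusted *p* = 0.0049, or 2.70 without replicate 1). *ctr4*, *pho1*, *ght5*, *arg5* and TER1 differed from their wild type in replicate 1 as they did in replicates 2 and 3, as their levels above show.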

How the data were processed

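RNA was measured in 12 libraries, of which the 3 *thc1*Δ and the 3 libraries of its wild type were compared. The authors deposited whole-number read counts per gene, not normalized, from RNA depleted of ribosomal RNA, sequenced single-end on one flow cell and aligned with STAR 2.5.2b to ASM294v2. For the counting tool, the use of strand and the handling of reads with several matches: not given in the sources used here. Gene names, biotypes and order come from RefSeq (ASM294v3), where 6846 genes matched by locus tag, 15 by synonym and 143 not at all. Overlaps of long non-coding RNAs with coding genes rest on the RefSeq (ASM294v3) positions and strands, not on the ASM294v2 assembly that the reads were aligned to. No sequence was used.

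Counts were tested in edgeR 4.0.16 (quasi-likelihood, TMM, filterByExpr with a minimum count of 10) under R 4.3.3, with Benjamini-Hochberg adjustment over all genes tested. SE is the absolute log2 fold change over the square root of *F*. Shares were compared by two-sided exact permutation tests. A departure is the log2 CPM (prior count 2) of a library minus the mean of the other libraries of its group. No pair of libraries agreed within sampling noise, with chi-square over degrees of freedom of 20.81 to 68.9 in *thc1*Δ and 2.947 to 6.994 among its wild type libraries. The fit was tested on simulated data. Alternatives were DESeq2 1.42.0, limma-voom 3.58.1, other scalings and filters, other sets of libraries and each library left out.

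Classes and gene lists were chosen with earlier results of these data known, and the list of amino acid synthesis other than arginine and histidine was added after values were seen. Genes were named by rule: *thc1*, TER1 and *his3*; from each list at most the 4 largest called changes without overlap; the 10 largest changes in each direction; the 10 smallest adjusted *p* values in each direction under 2-fold; and the 10 largest departures of *thc1*Δ replicate 1 among genes of at least 10 CPM. Genes named outside the rule, such as *puf5*, *ten1*, *wee1*, *str1*, *vht1*, *ilv3*, *leu1*, SPNCRNA.1650, SPRRNA.01, SPRRNA.02 and the genes in which *thc1*Δ stood apart from all other libraries, were chosen after their values were seen.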

Additional observations from a re-analysis of the deposited data

How the results depend on the processing

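With DESeq2 619 genes were higher and 640 lower in *thc1*Δ, with limma-voom 603 and 693, with RLE scaling 622 and 687, with library totals 514 and 763, without a filter 590 and 687, at a mean count of at least 50 606 and 685, with all 12 libraries in the fit 604 and 586, and without mitochondrial and ribosomal RNA genes 613 and 687. With the h+ wild type as the control 844 genes were called, 329 of them higher, and 28 and 62 passed 2-fold higher and lower. Without replicate 2 of that control, left out after seeing the data, 414 were called, 129 higher and 285 lower, with 26 and 57 at 2-fold. The number of the 41 classes with a median of at least 0.25 in size was 8, and 3 with that control. Leaving out one library gave 578 to 2562 calls in all, 255 to 1297 higher and 309 to 1265 lower, 38 to 79 higher and 23 to 44 lower at 2-fold, with the high ends without *thc1*Δ replicate 1. The replicate block gave 453 higher and 484 lower (46 and 28 at 2-fold), and samples of the same number did not deviate together (correlations of 3e-04, -0.0054 and -0.065). The share of counts on long non-coding RNAs was lower by 0.00702 percentage points in *thc1*Δ, at -0.034 to 0.014 with a library left out, which turned to 0.014 without *thc1*Δ replicate 2 and 0.0125 without wild type replicate 3 (exact permutation *p* = 0.9 with all libraries). Replicate 1 of *thc1*Δ departed 2-fold in 49 genes at a mean count of at least 50, and in 74 without that limit. Against the h+ wild type, named genes turned direction as follows: SPMITTRNALYS.01 -0.41, SPNCRNA.100 -0.17, SPRRNA.01 -0.34, SPRRNA.02 -0.26, *ags1* -0.04, *clr5* -0.36, *esc1* -0.35, *frp1* -0.82, *gcd1* -1.25, *ght1* -1.47, *ght5* -0.45, *gld1* -1.22, *lkh1* -0.44, *nep2* -0.37, *rsv1* -1.90, *scr1* -0.35, *str3* -0.02 and *wee1* -0.21, and *mei2* 0.81, *mfm2* 1.90, *pho84* 0.46, SPNCRNA.742 0.40 and *spk1* 0.02, with *map4* at -0.22. *vht1* ranged from -0.22, without *thc1*Δ replicate 1, to 0.48, without replicate 3. The cause of these differences was not tested.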

Other observations

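Genes of oxidative stress defence had 5 higher and 3 lower calls among 24 tested in *thc1*Δ (33.3%, against 21.1% over all genes). The peroxiredoxin gene *pmp20* was at 386, 458 and 480 CPM in *thc1*Δ and 160, 191 and 170 CPM in its wild type (1.34 ± 0.094 on the log2 scale, SE, adjusted *p* = 0.000114), and at 365, 386 and 438 CPM in the h+ wild type. The class had 15 higher and 4 lower calls without *thc1*Δ replicate 1, 3 and 2 higher without replicate 2 or 3, and 1 higher without any one wild type library. In glycolysis and fermentation 1 of 17 genes was higher and 3 were lower (23.5%, against 21.1% over all genes). Besides *pdc201* these were the alcohol dehydrogenase gene *adh4* at 171, 139 and 121 CPM in *thc1*Δ and 194, 193 and 205 CPM in its wild type (-0.46 ± 0.11, adjusted *p* = 0.0233, or 0.0948 in the least certain fit with a library left out) and both hexokinase genes, of which *hxk2* was higher (0.16) and *hxk1* lower (-0.16).

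A small gene without a described role, SPCC569.02c, was at 1.01, 1.15 and 0.859 CPM in *thc1*Δ and 4.32, 2.98 and 3.72 CPM in its wild type (-1.87 ± 0.19, adjusted *p* = 0.000496). All 6 h+ libraries were between 0.919 and 1.19 CPM, so that the h- wild type was set apart. The non-coding RNA SPNCRNA.742 had the same order of groups, with 8.4, 4.64 and 5.08 CPM in *thc1*Δ, 21.5, 15.8 and 19.6 CPM in its wild type and 4.06 to 5.43 CPM in the h+ libraries (-1.66 ± 0.21, adjusted *p* = 0.0016). The P-cell marker *map4* was higher in *thc1*Δ, at 24.7, 26.3 and 26.8 CPM against 19.4, 21.6 and 19.9 CPM in its wild type (0.35 ± 0.06, adjusted *p* = 0.00606), and was at 32.2, 32.1 and 26 CPM in the h+ wild type. It was the only 1 of the 4 P-cell markers tested with a positive change. The other 3 had negative changes, down to -0.30, with 0 called lower, and the median of the 4 was -0.03.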
